A study of Homo sapiens with 82 samples.

Results

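The mRNA levels of 10 genes of the epithelial chemokine and NF-κB programme were followed in HT29 cells treated with agonists of the liver X receptors (LXRs) or of PPARG. The genes were chosen by name and not by a threshold on a measured value, although earlier results of these data were known when they were chosen: the chemokine ligands CXCL1, CXCL2, CXCL3, IL8 (now CXCL8) and CCL20, the feedback genes NFKBIA, TNFAIP3 and BIRC3, the NF-κB subunit RELB and the adhesion molecule ICAM1. All 10 were found among the 51838 genes of the count tables, each in 1 row. HT29 is an established human colorectal adenocarcinoma line, held before treatment in medium free of phenol red with charcoal-stripped serum. The 32 RNA-seq libraries form 8 groups of n = 4: DMSO, the solvent of all 3 drugs, and 10 μM of the LXR agonist GW3965, the LXR agonist T0901317 or the PPARG agonist rosiglitazone, each for 24 h and for 48 h. The labels name no cytokine or other inflammatory stimulus in any group. The comparison bears on transrepression, the lowering of inflammatory genes by LXRs and PPARG.

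NF-κB is a family of dimeric transcription factors held in the cytoplasm by inhibitory IκB proteins until receptor signals lead to destruction of IκB. In intestinal epithelium it drives chemokines that call in neutrophils and lymphocytes, and it also drives its own inhibitors, so that the signal is limited by feedback. LXRs sense oxidised cholesterol and PPARG senses lipids, and both switch on genes of lipid handling. In macrophages, agonists of these nuclear receptors are also known to lower such genes without direct binding of the receptor to its usual DNA element.

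The promoters of these genes carry the NF-κB sites for which they are known, and they are shown to give the sequence context that the genes share. RefSeq promoters (GRCh38.p14, 250 bases before to 50 bases after the start) matched 9 of the 10 genes, and RELB had none. The 100 bases just before the start follow for the 3 near-identical CXC chemokines, IL8, CCL20 and NFKBIA, and bases 200 to 101 before the start for ICAM1. Capitals mark a match to the NF-κB consensus or to GGAANTTCC on either strand, and the 2 motifs overlap where both match.
CXCL1 (chr4:73869293-73869392, + strand): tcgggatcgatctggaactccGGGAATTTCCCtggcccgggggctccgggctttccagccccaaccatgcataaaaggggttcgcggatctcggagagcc
CXCL2 (chr4:74099196-74099295, - strand): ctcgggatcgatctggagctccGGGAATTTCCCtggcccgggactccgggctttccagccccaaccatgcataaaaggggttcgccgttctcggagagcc
CXCL3 (chr4:74038690-74038789, - strand): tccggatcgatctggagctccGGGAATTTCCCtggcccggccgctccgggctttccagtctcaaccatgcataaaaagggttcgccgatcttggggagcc
IL8 (chr4:73740469-73740568, + strand): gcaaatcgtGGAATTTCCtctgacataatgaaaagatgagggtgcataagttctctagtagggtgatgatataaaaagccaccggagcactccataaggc
CCL20 (chr2:227813742-227813841, + strand): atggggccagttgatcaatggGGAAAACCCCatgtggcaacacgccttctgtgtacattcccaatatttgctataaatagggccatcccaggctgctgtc
NFKBIA (chr14:35404750-35404849, - strand): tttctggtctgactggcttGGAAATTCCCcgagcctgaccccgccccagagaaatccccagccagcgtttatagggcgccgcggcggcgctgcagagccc
ICAM1 (chr19:10270920-10271019, + strand): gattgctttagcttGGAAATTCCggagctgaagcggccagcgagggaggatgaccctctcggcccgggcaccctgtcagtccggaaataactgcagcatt
The windows of CXCL1 and CXCL2 differed by 6 edits (substitutions, insertions or deletions), those of CXCL1 and CXCL3 by 10 and those of CXCL2 and CXCL3 by 11, whereas CXCL1 and IL8 differed by 57. Of the 9 promoters, 7 held the NF-κB consensus, against 5.91% of all 35116 promoters of 300 bases, and 6 held GGAANTTCC, against 0.965%. All 9 held at least 1 of both, against 6.62%. GGAANTTCC was added after the sequences had been seen. The AP-1 motif TGANTCA, searched likewise on both strands, was in the IL8 promoter alone and in 7.71% of all promoters. Direct repeats of AGGTCA spaced by 4 bases (DR4, the LXR element) or by 1 base (DR1, the PPARG element) were in none of the 9, and in 0.0199% and 0.0228% of all. As exact repeats were in only 7 and 8 of the 35116 promoters, finding none in 9 cannot tell whether these genes lack such elements. These are matches of letters in a short window and not measured binding.

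Total counts ran from 21044798 to 51332656 per library. Levels are given as CPM, counts scaled to a common library size with TMM factors. The 8 epithelial markers (EPCAM, KRT8, KRT18, KRT20, CDH1, VIL1, CDX2 and LGALS4) were expressed in every group and summed to between 14715 and 22303 CPM per library. At 48 h the sum was 17417 to 18514 CPM with DMSO, 16527 to 17258 CPM with GW3965, 14715 to 16258 CPM with T0901317 and 18691 to 22303 CPM with rosiglitazone. KRT8 and KRT18 dominate this sum, with group means of 7551 to 10830 and 5894 to 7777 CPM. Tested singly at 48 h, 4 of the 8 markers rose and 0 fell with GW3965, against 16.1% and 17.5% of all genes. With T0901317, 2 rose and 2 fell (14% and 16.1%), and with rosiglitazone 3 rose and 2 fell (12.3% and 13.1%). Group means of KRT20 ran from 256 to 1125 CPM and those of VIL1 from 73.2 to 239 CPM. Of the leukocyte markers, PTPRC, CD3E and CSF1R did not exceed 0.218 CPM in any group mean, CD14 ran from 0.598 to 3.52 CPM and LYZ from 467 to 711 CPM. CD14 and LYZ, the 2 that passed the filter, both rose at 48 h with GW3965 (1.94 and 0.27, log2) and with T0901317 (2.54 and 0.61), and at 24 h CD14 rose with T0901317 (0.86) and LYZ with rosiglitazone (0.26). The leukocyte markers summed to 458 to 483 CPM per library with DMSO at 48 h, 539 to 595 CPM with GW3965, 682 to 752 CPM with T0901317 and 455 to 497 CPM with rosiglitazone. LYZ dominates this sum, with group means of 467 to 711 CPM. Of the 5 fibroblast and endothelial markers found, COL3A1, DCN, PDGFRB and VWF did not exceed 0.321 CPM in any group mean. COL1A1 ran from 3.04 to 8.07 CPM and rose with GW3965 at 48 h (0.53). The part of these marker changes in the results was not tested. Both sets of agonists raised their known targets. ABCA1, a cholesterol exporter under LXR control, rose by 4.61 (log2) with GW3965 and 3.71 with T0901317 at 24 h, and ABCG1 by 4.67 and 4.34. ANGPTL4 and PLIN2, a lipase inhibitor and a lipid droplet protein under PPAR control, rose by 5.02 and 2.79 with rosiglitazone. Each set also moved with the other agonists. Of the PPARG targets, 2 of 4 rose at 24 h and 3 of 3 tested at 48 h with GW3965, and 1 of 4 and 1 of 3 with T0901317, PLIN2 at 24 h by 1.58 and 0.61. Of the 5 LXR targets, 3 rose and 1 fell at 24 h and 4 rose at 48 h with rosiglitazone. In bulk RNA, fewer cells expressing a gene and less RNA per cell cannot be told apart.

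In DMSO alone the programme was higher at 48 h than at 24 h. Of the 10 genes, 6 rose and 0 fell, against 19.7% and 18.9% of 23140 genes called in the same edgeR fit of all 32 libraries, where called means a Benjamini-Hochberg adjusted p under 0.01 in the quasi-likelihood test. Of the 6, 5 rose at least 2-fold, against 5.09% of all genes. The median change of the 10 was 0.98 (log2), and that of all genes was 0.0016. Time and any difference in handling between the time points cannot be told apart.

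CXCL3, a neutrophil chemokine, went from 0.489 ± 0.14 to 3.62 ± 0.74 CPM (SD, n = 4), a log2 fold change of 2.86, SE 0.33, adjusted p = 8.30e-09. CCL20, which attracts CCR6-bearing lymphocytes and dendritic cells, went from 0.245 ± 0.11 to 1.73 ± 0.27 CPM, a log2 fold change of 2.82, SE 0.57, adjusted p = 0.000115. CXCL2 rose by 2.23 (adjusted p = 2.91e-05) and IL8, the main neutrophil attractant of human epithelium, by 1.40 (adjusted p = 6.96e-07). RELB, the subunit of the non-canonical NF-κB pathway, rose by 1.24 (adjusted p = 2.65e-11), and TNFAIP3, the ubiquitin-editing enzyme A20, by 0.66 (adjusted p = 0.000448). In these 6 genes the libraries of both times did not overlap. How many of all genes show no overlap was not computed, and the 19.7% given above refers to calls in the test. CXCL1 (0.73, adjusted p = 0.017) and ICAM1 (0.39, adjusted p = 0.0282) missed the threshold, and both passed it without replicate 3 of DMSO at 48 h (CXCL1 0.87, adjusted p = 0.0076, over leave-one-out fits 0.0076 to 0.072, and ICAM1 0.49, adjusted p = 0.0082, over leave-one-out fits 0.00825 to 0.141). NFKBIA (-0.09, adjusted p = 0.261) and BIRC3 (-0.08, adjusted p = 0.696) were not called.

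At 24 h the drugs left few marks on the programme. Of the 9 genes tested, 1 rose and 0 fell with GW3965, against 1.86% and 0.868% of 21781 genes. With T0901317, 0 were called by edgeR, with 2 at an unadjusted p under 0.05 and 1 called by DESeq2, against 1.33% of genes higher and 0.119% lower. With rosiglitazone 1 rose and 0 fell, against 5.81% and 6.52%. Each drug was set against the same 4 DMSO libraries of its time point, so the drug comparisons are not independent.

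The gene that rose was NFKBIA, which encodes IκBα, the inhibitor that returns NF-κB to the cytoplasm. Its level was 22.3, 20.7, 21.1 and 20.5 CPM in the DMSO libraries, 28, 27.5, 29.3 and 30 CPM with GW3965, 24.9, 25.9, 26.4 and 25 CPM with T0901317 and 26.2, 24.4, 24.7 and 28.6 CPM with rosiglitazone. All 12 treated libraries lay above all 4 DMSO libraries. The change was a log2 fold change of 0.44, SE 0.06, adjusted p = 7.69e-05 with GW3965, and a log2 fold change of 0.29, SE 0.06, adjusted p = 0.00178 with rosiglitazone. With T0901317 it was a log2 fold change of 0.27, SE 0.06, adjusted p = 0.0158, which misses the threshold. The call with rosiglitazone was lost with library size as the only scaling (0.19, adjusted p = 0.037, over alternatives from 5.75e-05 to 1).

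RELB at 24 h was 19.3, 20.8, 17.4 and 18.7 CPM with DMSO and 24.6, 24.1, 27.1 and 25.1 CPM with rosiglitazone. The rosiglitazone libraries were all higher, and the change (log2 fold change 0.40, SE 0.11, adjusted p = 0.0102) fell just short of the threshold. With DESeq2, without the low-count filter, with all 32 libraries or with only the 8 libraries compared it passed (adjusted p over alternatives from 0.00036 to 1). RELB was 16.7 ± 2.7 CPM with GW3965 and 19.1 ± 2.6 CPM with T0901317, which overlapped DMSO. CXCL3 was 0.489 ± 0.14 CPM with DMSO, 0.877 ± 0.25 CPM with GW3965 and 1.09 ± 0.43 CPM with T0901317, with adjusted p = 0.256 and 0.139. IL8 lay between 2.21 and 2.60 CPM in the 4 group means at 24 h. CCL20 was too low at 24 h to pass the filter: its counts over 4 libraries summed to 36 with DMSO, and to 5, 11 and 6 in the GW3965, T0901317 and rosiglitazone groups. The 11 counts with T0901317 were all in replicate 1. In the fit of all 32 libraries the log2 fold changes of CCL20 were -2.94 with GW3965, -1.49 with T0901317 and -2.39 with rosiglitazone. Without the filter, or with all 32 libraries, its adjusted p was 0.140 and 0.0772 with GW3965, 0.682 and 0.517 with T0901317 and 0.125 and 0.0677 with rosiglitazone.

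**Figure D1:**
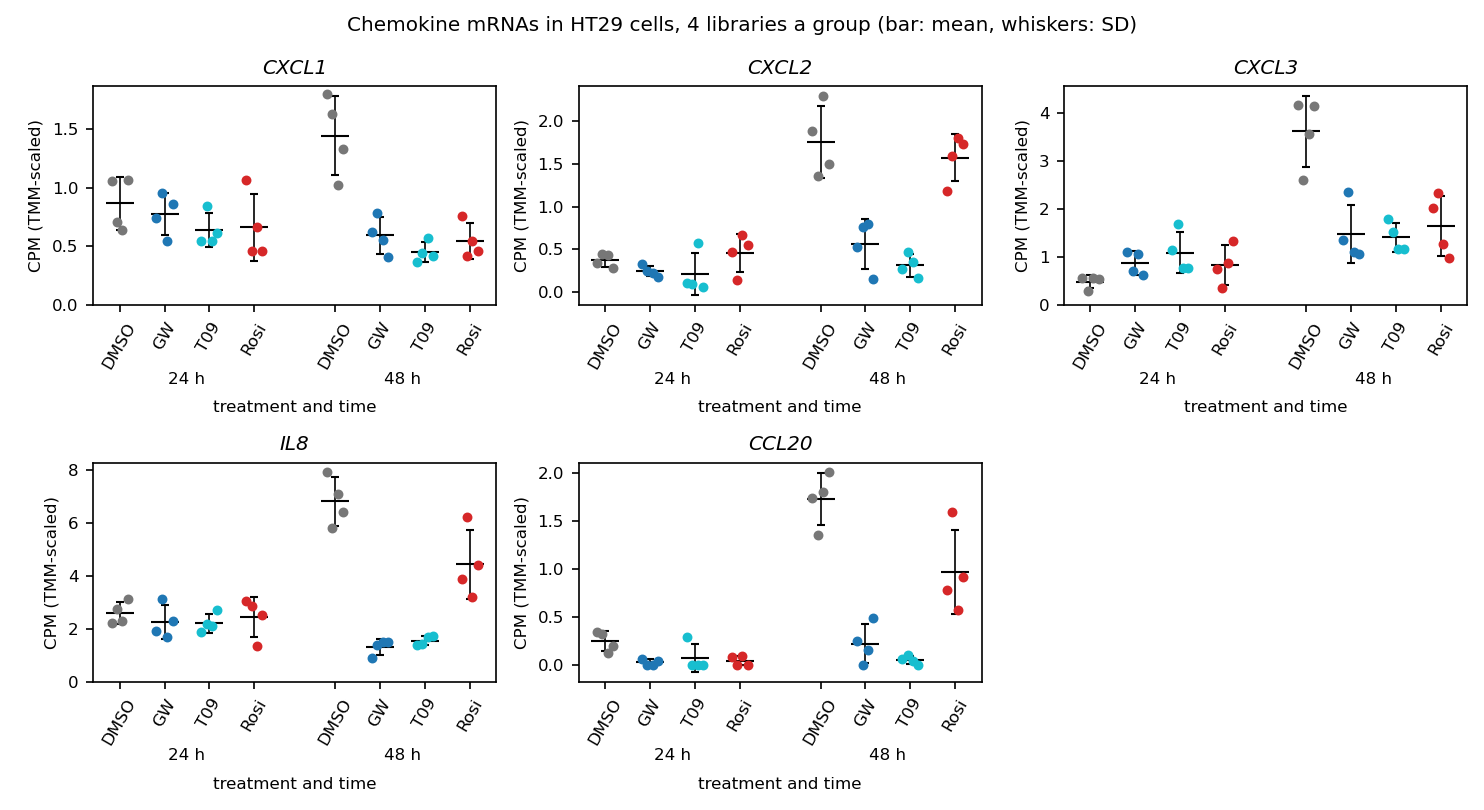
Level of the 5 chemokine genes (CPM, TMM-scaled over all 32 libraries) by treatment and time. Points are single libraries, short horizontal lines are group means and whiskers are SD (n = 4), the axes start at or just below 0, and GW, T09 and Rosi stand for GW3965, T0901317 and rosiglitazone. The DMSO libraries at 48 h are the highest group mean in all 5 genes, and the GW3965 and T0901317 libraries at 48 h lie below them in each.

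At 48 h all 5 chemokine genes fell with both LXR agonists, and the feedback inhibitor NFKBIA was higher with every drug. With GW3965, 2 of 10 genes rose and 7 fell, against 16.1% and 17.5% of 22470 genes, and 5 of the 7 fell at least 2-fold, against 2.54%. With T0901317, 1 rose and 6 fell, against 14% and 16.1%, and all 6 fell at least 2-fold, against 2.59%. With rosiglitazone, 2 rose and 4 fell, against 12.3% and 13.1%, and 2 fell at least 2-fold, against 3.87%. The median log2 fold change of the 10 genes was -1.14, -1.37 and -0.42 with GW3965, T0901317 and rosiglitazone, and that of all genes was 6.02e-05, 0.013 and -0.012. The markers CD14 and LYZ were higher in the same LXR agonist groups, as given above. PTPRC, CD3E and CSF1R did not exceed 0.218 CPM in any group mean.

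IL8 was 7.93, 5.81, 7.1 and 6.41 CPM in the DMSO libraries at 48 h. It was 0.886, 1.38, 1.5 and 1.48 CPM with GW3965, 1.37, 1.42, 1.68 and 1.74 CPM with T0901317 and 3.87, 6.22, 3.21 and 4.42 CPM with rosiglitazone. No library of either LXR agonist reached the lowest DMSO library, whereas rosiglitazone replicate 2 overlapped DMSO. The changes were a log2 fold change of -2.38, SE 0.19, adjusted p = 9.33e-09 with GW3965, a log2 fold change of -2.13, SE 0.19, adjusted p = 2.90e-08 with T0901317 and a log2 fold change of -0.65, SE 0.18, adjusted p = 0.0066 with rosiglitazone. The fall with rosiglitazone was lost when any 1 of 6 libraries was left out (DMSO replicate 1, 3 or 4, or rosiglitazone replicate 1, 3 or 4), with log2 fold changes from -0.85 to -0.52 and adjusted p from 0.000521 to 0.0279 over the 8 omissions. It was also lost with all 32 libraries in the fit or with only the 8 libraries compared. The group means of IL8 ran from GW3965 at 48 h (1.31 ± 0.29 CPM) and T0901317 at 48 h (1.55 ± 0.18 CPM), which overlapped each other, through the 4 overlapping 24 h groups to rosiglitazone and then DMSO at 48 h.

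CCL20 counts at 48 h were 59, 46, 74 and 71 in the DMSO libraries and 30, 49, 21 and 28 with rosiglitazone. They were 11, 0, 7 and 25 with GW3965 and 3, 4, 2 and 0 with T0901317, so that the treated libraries stand close to the detection limit. The changes were a log2 fold change of -2.88, SE 0.46, adjusted p = 4.31e-05 with GW3965 and a log2 fold change of -5.09, SE 0.59, adjusted p = 1.11e-06 with T0901317. Without GW3965 replicate 4, which held most of that group's counts, the first was -3.62. With rosiglitazone it was a log2 fold change of -0.87, SE 0.40, adjusted p = 0.0994, which misses the threshold.

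CXCL1, CXCL2 and CXCL3 lie together on chromosome 4 and encode near-identical proteins, so reads may have been split between them and their single values are uncertain. CXCL1 was 1.79, 1.62, 1.03 and 1.33 CPM with DMSO, 0.62, 0.786, 0.558 and 0.409 CPM with GW3965, 0.367, 0.442, 0.567 and 0.416 CPM with T0901317 and 0.758, 0.421, 0.545 and 0.458 CPM with rosiglitazone. All 12 treated libraries were below all 4 DMSO libraries, with changes of -1.29 (adjusted p = 0.000209), -1.68 (adjusted p = 1.87e-05) and -1.40 (adjusted p = 0.000208). CXCL3 fell likewise with each drug, with changes of -1.32 (adjusted p = 0.000342), -1.35 (adjusted p = 0.000296) and -1.15 (adjusted p = 0.00184), from 3.62 ± 0.74 CPM with DMSO to 1.47 ± 0.6, 1.42 ± 0.3 and 1.65 ± 0.63 CPM. In a test against a fold change of 1.5, CXCL3 was no longer called with any drug (adjusted p = 0.0205, 0.0174 and 0.0846). CXCL1 was then no longer called with GW3965 (adjusted p = 0.017) or rosiglitazone (adjusted p = 0.0112). CXCL2 was 1.88, 1.36, 2.29 and 1.5 CPM with DMSO, 0.531, 0.759, 0.793 and 0.156 CPM with GW3965, 0.27, 0.466, 0.349 and 0.158 CPM with T0901317 and 1.18, 1.59, 1.8 and 1.73 CPM with rosiglitazone. The LXR agonist libraries were all below DMSO, and the rosiglitazone libraries overlapped DMSO. The changes were -1.68 (adjusted p = 0.000342), -2.52 (adjusted p = 1.10e-05) and, not called, -0.19 (adjusted p = 0.674).

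The counts of CXCL1, CXCL2 and CXCL3 were also added to 1 row, which does not depend on how counted reads were split among them. Reads dropped or counted more than once would still alter the sum, and the counting program is not stated. With the sum, the changes at 48 h were -1.40 (SE 0.19, adjusted p = 5.58e-06) with GW3965, -1.65 (SE 0.19, adjusted p = 9.61e-07) with T0901317 and -0.87 (SE 0.19, adjusted p = 0.000989) with rosiglitazone. At 24 h they were 0.13 (SE 0.22, adjusted p = 0.883), 0.14 (SE 0.23, adjusted p = 0.892) and 0.16 (SE 0.23, adjusted p = 0.687). In a test against a fold change of 1.5, the sum was still called with both LXR agonists at 48 h and no longer with rosiglitazone (adjusted p = 0.229, over alternatives and omissions from 0.000103 to 0.229).

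**Figure D2:**
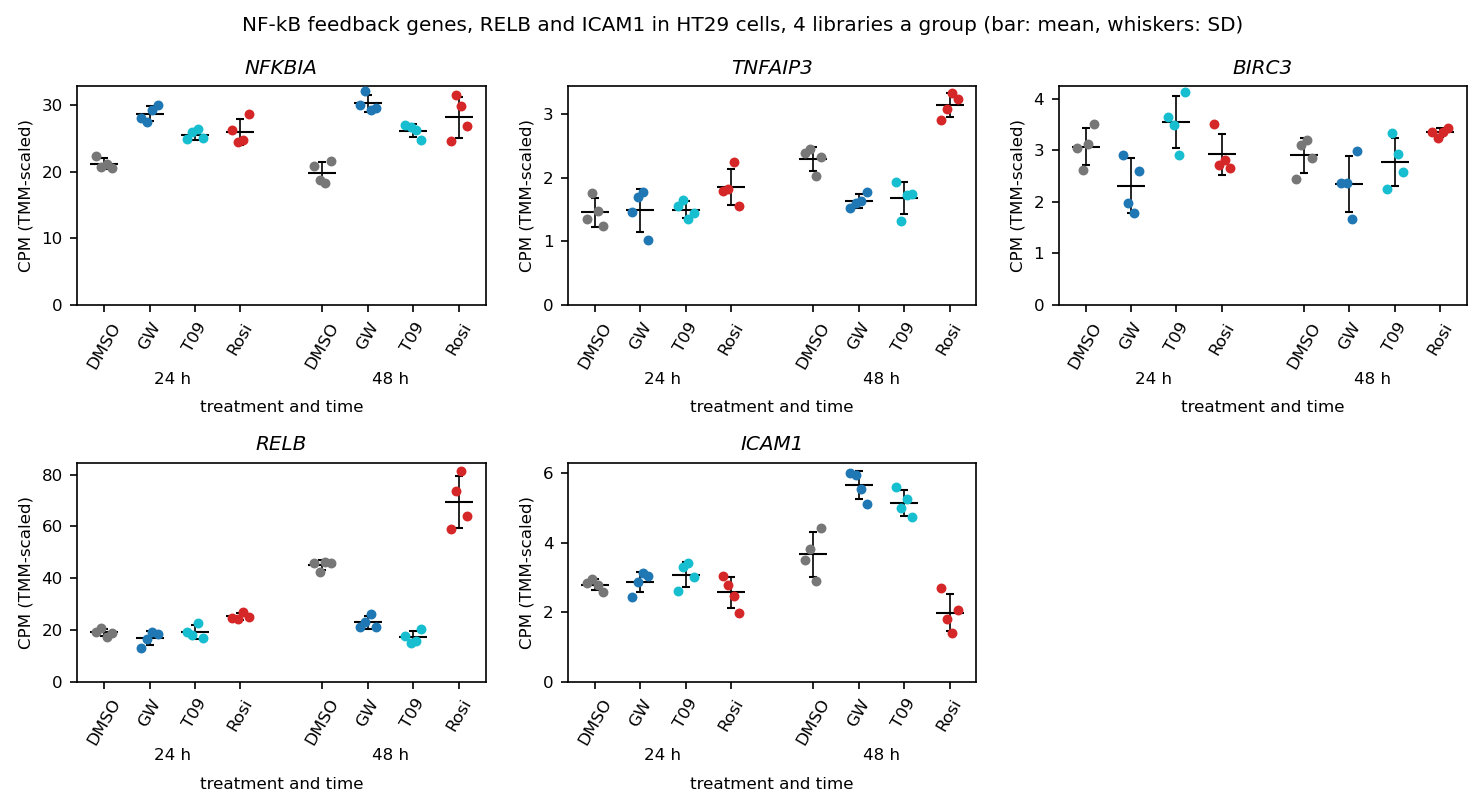
Level of NFKBIA, TNFAIP3, BIRC3, RELB and ICAM1 (CPM, TMM-scaled over all 32 libraries) by treatment and time. Points are single libraries, short horizontal lines are group means and whiskers are SD (n = 4), and the axes start at 0. NFKBIA is above DMSO with each drug at both times, RELB at 48 h is below DMSO with GW3965 and T0901317 and above it with rosiglitazone, and ICAM1 at 48 h shows the opposite order.

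Among the feedback genes, NFKBIA was again higher. At 48 h it was 20.8, 18.8, 18.3 and 21.5 CPM with DMSO, 30, 32.1, 29.3 and 29.5 CPM with GW3965, 27, 26.6, 26.3 and 24.7 CPM with T0901317 and 24.6, 31.4, 29.8 and 26.9 CPM with rosiglitazone. All 12 treated libraries exceeded all 4 DMSO libraries, with changes of 0.60 (adjusted p = 2.66e-06), 0.40 (adjusted p = 0.000299) and 0.49 (adjusted p = 5.59e-05). None of these 3 passed a test against a fold change of 1.5.

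TNFAIP3 was 2.38, 2.45, 2.03 and 2.32 CPM with DMSO, 1.53, 1.6, 1.63 and 1.77 CPM with GW3965, 1.93, 1.33, 1.72 and 1.74 CPM with T0901317 and 2.9, 3.08, 3.32 and 3.24 CPM with rosiglitazone. The groups did not overlap DMSO, with the LXR agonists below and rosiglitazone above. GW3965 was called (log2 fold change -0.49, SE 0.13, adjusted p = 0.00515). T0901317 (log2 fold change -0.44, SE 0.13, adjusted p = 0.0113) and rosiglitazone (log2 fold change 0.43, SE 0.13, adjusted p = 0.0124) were not, and T0901317 passed without DMSO replicate 3 or T0901317 replicate 1 (adjusted p over omissions from 0.00712 to 0.042). The call with GW3965 lies near the threshold and was lost without DMSO replicate 1, 2 or 4 or GW3965 replicate 1, 2 or 3, with changes from -0.55 to -0.46 and adjusted p from 0.00477 to 0.0177 over the 8 omissions, and without the low-count filter (-0.47, adjusted p = 0.0199). BIRC3, which encodes the ubiquitin ligase cIAP2, was called in none of the 6 comparisons with DMSO by edgeR, with 1 of the 6 at an unadjusted p under 0.05 (GW3965 at 24 h, adjusted p = 0.188) and none called by DESeq2. Its group means ran from 2.31 to 3.54 CPM, and the 95% intervals at 48 h were -0.64 to 0.02 with GW3965, -0.40 to 0.26 with T0901317 and -0.15 to 0.52 with rosiglitazone (log2). All 4 rosiglitazone libraries lay above DMSO at 48 h, with a change of 0.18 (adjusted p = 0.394).

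RELB moved in opposite directions with the LXR and PPARG agonists. At 48 h it was 45.7, 42.4, 46.3 and 45.7 CPM with DMSO, 21.1, 23.1, 26.2 and 21 CPM with GW3965, 17.6, 15.1, 15.8 and 20.2 CPM with T0901317 and 58.9, 73.8, 81.3 and 64 CPM with rosiglitazone. No treated library overlapped DMSO. RELB fell with GW3965 (log2 fold change -0.98, SE 0.10, adjusted p = 2.46e-07) and with T0901317 (log2 fold change -1.39, SE 0.10, adjusted p = 3.71e-09), and rose with rosiglitazone (log2 fold change 0.61, SE 0.10, adjusted p = 9.18e-05). The 48 h means with GW3965 (22.8 ± 2.5 CPM) and T0901317 (17.2 ± 2.3 CPM) lay in the range of the 24 h groups, between 16.7 ± 2.7 and 25.2 ± 1.3 CPM.

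ICAM1, which binds leukocyte integrins, had the reverse order. At 48 h it was 3.5, 3.84, 2.9 and 4.43 CPM with DMSO, 6.02, 5.96, 5.55 and 5.13 CPM with GW3965, 5.62, 5.01, 5.27 and 4.73 CPM with T0901317 and 2.69, 1.82, 1.39 and 2.06 CPM with rosiglitazone. All LXR agonist libraries were above DMSO and all rosiglitazone libraries below it. ICAM1 rose with GW3965 (log2 fold change 0.62, SE 0.15, adjusted p = 0.00198) and fell with rosiglitazone (log2 fold change -0.89, SE 0.17, adjusted p = 0.000262). With T0901317 it missed the threshold (log2 fold change 0.50, SE 0.15, adjusted p = 0.0118), which it passed with DESeq2, with library size as the only scaling, without the low-count filter, with all 32 libraries or with only the 8 libraries compared (adjusted p over alternatives from 0.00467 to 1), and without DMSO replicate 4 (0.59). Without DMSO replicate 3, the call with GW3965 was lost (0.52, adjusted p = 0.0116, over leave-one-out fits 0.00117 to 0.0116). The IL8 and ICAM1 windows above both hold GGAANTTCC, and with GW3965 IL8 fell and ICAM1 rose. Whether the motif has a part in either response was not tested.

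**Figure D3:**
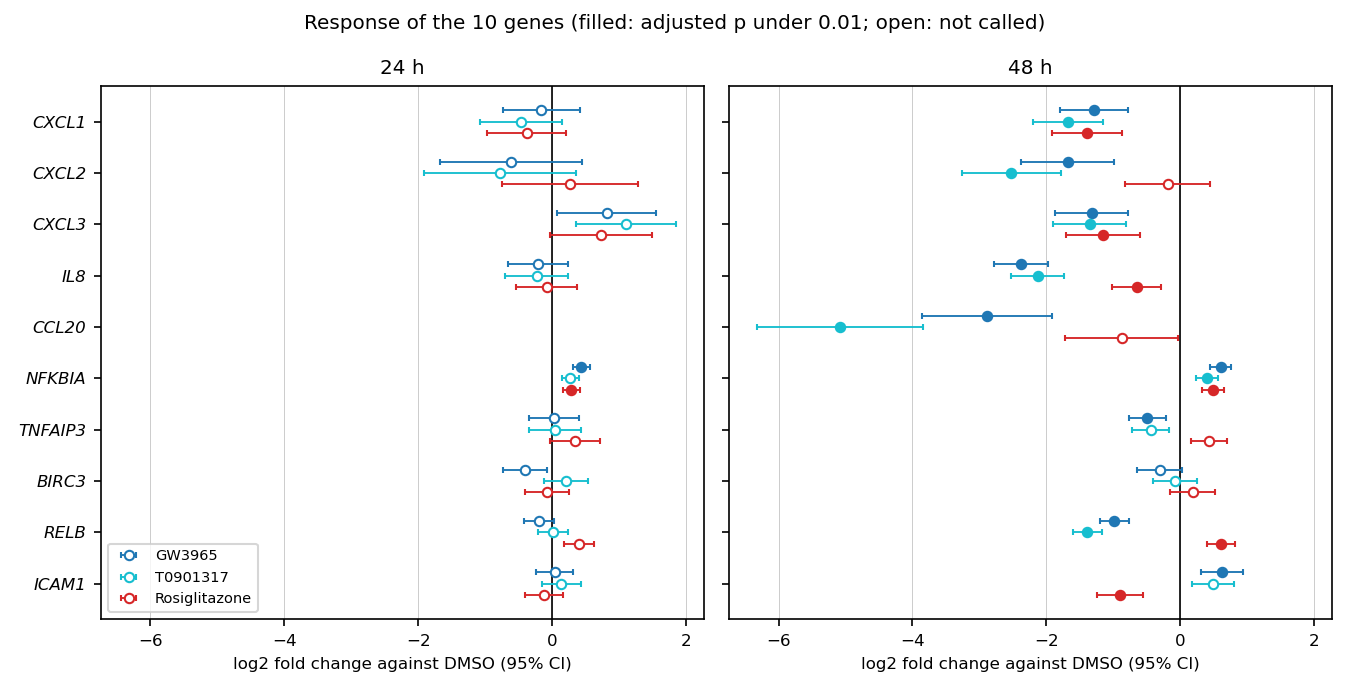
Log2 fold change of each of the 10 genes against DMSO at 24 h and 48 h, with 95% confidence intervals from edgeR. Filled points were called at an adjusted p under 0.01, open points were not, and CCL20 was not tested at 24 h. At 24 h the 2 filled points are NFKBIA with GW3965 and rosiglitazone, and at 48 h the chemokine genes lie to the left of 0 with all drugs.

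The LXR agonists were compared with each other, as GW3965 minus T0901317 on the log2 scale. At 24 h, 0 of 9 genes were called by edgeR or DESeq2, with 2 at an unadjusted p under 0.05, against 0.193% of genes higher and 0.597% lower with GW3965. At 48 h, 0 of 10 were called by edgeR, with 4 at an unadjusted p under 0.05 and 1 called by DESeq2, against 5.03% and 3.32%. That gene was RELB, with a difference of 0.40 (SE 0.10, adjusted p = 0.0114), which also passed without T0901317 replicate 4 (0.50, adjusted p over omissions from 0.00463 to 0.0526). For CCL20 the difference was 2.21 (95% interval 0.64 to 3.77, adjusted p = 0.0479), which was not called and became 1.47 without GW3965 replicate 4 (adjusted p over leave-one-out fits 0.0106 to 0.241). For CXCL2 the difference was 0.84 (95% interval 0.02 to 1.66, adjusted p = 0.157). For IL8 the interval of the difference was -0.68 to 0.18, for CXCL1 -0.17 to 0.94 and for CXCL3 -0.54 to 0.60.

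Rosiglitazone was then compared with each LXR agonist. At 24 h, RELB alone was called, higher than with GW3965 by 0.59 (SE 0.11, adjusted p = 0.000456), against 4.6% of genes higher and 6.09% lower. Against T0901317, 0 of 9 genes were called by edgeR, with 1 at an unadjusted p under 0.05 and 1 called by DESeq2, against 6.01% and 8.13%. That gene was also RELB (0.39, adjusted p = 0.0123), which passed without T0901317 replicate 3 (0.48, adjusted p = 0.0033, over omissions to 0.040), as did CXCL2 (2.34, adjusted p = 0.0034, over leave-one-out fits 0.00336 to 0.389). At 48 h, 5 genes were higher and 1 was lower with rosiglitazone than with GW3965, against 22.4% and 22.6% of genes, and likewise 5 and 1 against T0901317, with 23.7% and 24.6%.

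In both comparisons at 48 h the higher genes were CXCL2, IL8, CCL20, TNFAIP3 and RELB, and the lower gene was ICAM1. RELB differed by 1.59 (SE 0.10) from GW3965 and 1.99 (SE 0.11) from T0901317. IL8 differed by 1.73 (SE 0.20) and 1.48 (SE 0.19), and ICAM1 by -1.52 (SE 0.16) and -1.39 (SE 0.16). For CCL20 the difference from GW3965, 2.01 (SE 0.49), became 2.75 without GW3965 replicate 4. BIRC3 missed the threshold against GW3965 (0.49, adjusted p = 0.0124) and passed it without GW3965 replicate 4 (0.64, adjusted p over leave-one-out fits 0.00267 to 0.051). CXCL1 and CXCL3 were not called, with intervals of -0.66 to 0.46 and -0.41 to 0.75 against GW3965.

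An interaction term in the fit of all 32 libraries tested whether the log2 response itself changed from 24 h to 48 h. With GW3965, 0 genes had a higher and 3 a lower response at 48 h, against 9.96% and 11.7% of genes, and with T0901317 likewise 0 and 3, against 7.49% and 9.95%. With rosiglitazone 0 were called by edgeR or DESeq2, with 4 at an unadjusted p under 0.05, against 1.38% and 1.06%. The 3 genes were CXCL3, IL8 and RELB with both LXR agonists. The log2 response at 48 h minus that at 24 h was, for CXCL3, -2.13 (adjusted p = 0.000473) and -2.44 (adjusted p = 0.00012), for IL8 -2.17 (adjusted p = 1.15e-06) and -1.90 (adjusted p = 1.18e-05), and for RELB -0.79 (adjusted p = 0.000148) and -1.40 (adjusted p = 2.05e-08), with GW3965 and T0901317 in that order. In all 3 genes the DMSO level had risen between the time points, as given above, and the group means with either LXR agonist moved less. IL8 went down, from 2.25 ± 0.63 to 1.31 ± 0.29 CPM with GW3965 and from 2.21 ± 0.36 to 1.55 ± 0.18 CPM with T0901317. CXCL3 went up, from 0.877 ± 0.25 to 1.47 ± 0.6 CPM and from 1.09 ± 0.43 to 1.42 ± 0.3 CPM. RELB went from 16.7 ± 2.7 to 22.8 ± 2.5 CPM with GW3965 and from 19.1 ± 2.6 to 17.2 ± 2.3 CPM with T0901317. Change within an agonist group was not tested. The CXCL3 libraries with either LXR agonist already lay above DMSO at 24 h, though not called. For CXCL3 with rosiglitazone the interaction was -1.86 (adjusted p = 0.0132), which passed the threshold with library size as the only scaling, without the low-count filter, and without rosiglitazone replicate 2 at 24 h or replicate 1 or 2 at 48 h (adjusted p over omissions from 0.00497 to 0.0553). 3 other interactions missed the threshold and passed it when 1 library was left out. CXCL1 with GW3965 was -1.13 (adjusted p = 0.0175) and passed without GW3965 replicate 3 at 24 h, DMSO replicate 3 at 48 h or GW3965 replicate 2 at 48 h (adjusted p over leave-one-out fits 0.00895 to 0.0496). TNFAIP3 with GW3965 was -0.52 (adjusted p = 0.0625) and passed without GW3965 replicate 4 at 24 h (adjusted p over leave-one-out fits 0.0093 to 0.148). ICAM1 with rosiglitazone was -0.76 (adjusted p = 0.029) and passed without rosiglitazone replicate 1 at 48 h (-0.95, adjusted p over leave-one-out fits 0.00243 to 0.088).

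The rest of the pathway was read from 5 lists of 89 genes that do not contain the 10. Of these, 62 passed the filter at 24 h and 67 at 48 h. In DMSO from 24 to 48 h, 31 rose and 6 fell, beside 19.7% and 18.9% of all genes. At 24 h, 0 rose and 3 fell with GW3965, beside 1.86% and 0.868% of all genes. With T0901317, 0 were called by edgeR (8 at an unadjusted p under 0.05 and 1 called by DESeq2), beside 1.33% and 0.119%. With rosiglitazone, 9 rose and 7 fell, beside 5.81% and 6.52%. The 3 called with GW3965 at 24 h became 7 at an adjusted p under 0.05, 6 with DESeq2, 6 without GW3965 replicate 1 and 0 in a test against a fold change of 1.5. The shares of all genes called in these settings were not computed, so the changes cannot be set beside them. At 48 h, 6 rose and 31 fell with GW3965, 3 rose and 29 fell with T0901317, and 18 rose and 9 fell with rosiglitazone. Of all genes, 16.1% rose and 17.5% fell with GW3965, 14% and 16.1% with T0901317 and 12.3% and 13.1% with rosiglitazone, and the counts of each list at 48 h are to be read against these shares. Against a fold change of 1.5, 8 were called with GW3965, 8 with T0901317 and, for rosiglitazone, 5 at the later and 2 at the earlier time. The share of all genes called in that test was not computed. Over the 67 genes tested at 48 h, the median change was -0.27, -0.24 and 0.043 (log2), with the drugs in the same order.

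Of the 9 other NF-κB and IκB subunits, 7 fell and 1 rose with GW3965 at 48 h (17.5% and 16.1% of all genes), 6 fell and 0 rose with T0901317 (16.1% and 14%), and 4 rose and 1 fell with rosiglitazone (12.3% and 13.1%). BCL3, a nuclear IκB protein that binds p50 and p52, was 92.5 ± 10 CPM with DMSO, 29.1 ± 1.7 CPM with GW3965, 27.8 ± 6.2 CPM with T0901317 and 165 ± 17 CPM with rosiglitazone. It fell by 1.67 and 1.73 (log2) with the LXR agonists and rose by 0.82 with rosiglitazone. NFKBIZ, another nuclear IκB protein, fell with all drugs at 48 h (-0.89, -0.73 and -1.01), and at 24 h with rosiglitazone (-0.78) and GW3965 (-0.42).

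Of the 12 other genes listed as feedback inhibitors 10 were tested, and the list also holds genes of survival such as IER3. At 48 h, 7 fell with GW3965 (17.5% of all genes) and 8 fell with T0901317 (16.1%). With rosiglitazone 3 rose and 1 fell (12.3% and 13.1%). IER3, an early response gene with a part in survival, was 227 ± 4.4 CPM with DMSO, 57.6 ± 4.4 CPM with GW3965, 60.6 ± 1.8 CPM with T0901317 and 186 ± 35 CPM with rosiglitazone. It fell by 1.98 and 1.90 (log2) with the LXR agonists, and with rosiglitazone it was -0.30 with adjusted p = 0.0167. CYLD, a deubiquitinase that limits NF-κB signals, fell with rosiglitazone at 24 h (-0.66) and with all drugs at 48 h (-0.68, -0.45 and -0.36).

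Of the 28 receptors and kinases 26 were tested, and 3 rose and 9 fell with GW3965 (16.1% and 17.5% of all genes), 2 rose and 9 fell with T0901317 (14% and 16.1%) and 8 rose and 5 fell with rosiglitazone (12.3% and 13.1%) at 48 h. TNFRSF12A, the TWEAK receptor, was 274 ± 23 CPM with DMSO, 87.7 ± 2.9 CPM with GW3965, 73.7 ± 4.8 CPM with T0901317 and 442 ± 56 CPM with rosiglitazone. It fell with GW3965 (-1.65) and T0901317 (-1.89) and rose with rosiglitazone (0.67), the order seen for RELB and BCL3. TLR4, the receptor for lipopolysaccharide, rose with rosiglitazone by 1.64 at 24 h and 1.27 at 48 h, and also with T0901317 at 48 h (adjusted p = 0.0019).

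Of the 20 other chemokines and cytokines only 9 passed the filter at 48 h, of which 1 rose and 1 fell with each LXR agonist and 0 were called with rosiglitazone by edgeR (2 at an unadjusted p under 0.05). These counts do not exceed the shares of all genes, 16.1% higher and 17.5% lower with GW3965 and 14% and 16.1% with T0901317. IL32, a cytokine, fell with GW3965 (-1.36) and T0901317 (-1.43) from 5.58 ± 2.2 CPM with DMSO, and was -0.13 with rosiglitazone (adjusted p = 0.781). Of the 20 other target genes 13 were tested, and 1 rose and 7 fell with GW3965 (16.1% and 17.5% of all genes), 0 rose and 5 fell with T0901317 (14% and 16.1%) and 3 rose and 2 fell with rosiglitazone (12.3% and 13.1%). PTGS2, the inducible prostaglandin synthase, was 62.7 ± 0.51 CPM with DMSO, 9.81 ± 1.4 CPM with GW3965, 9.6 ± 1.2 CPM with T0901317 and 13.5 ± 3.3 CPM with rosiglitazone at 48 h. It fell with all drugs (-2.67, -2.71 and -2.24) and at 24 h with rosiglitazone (-0.90).

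**Figure D4:**
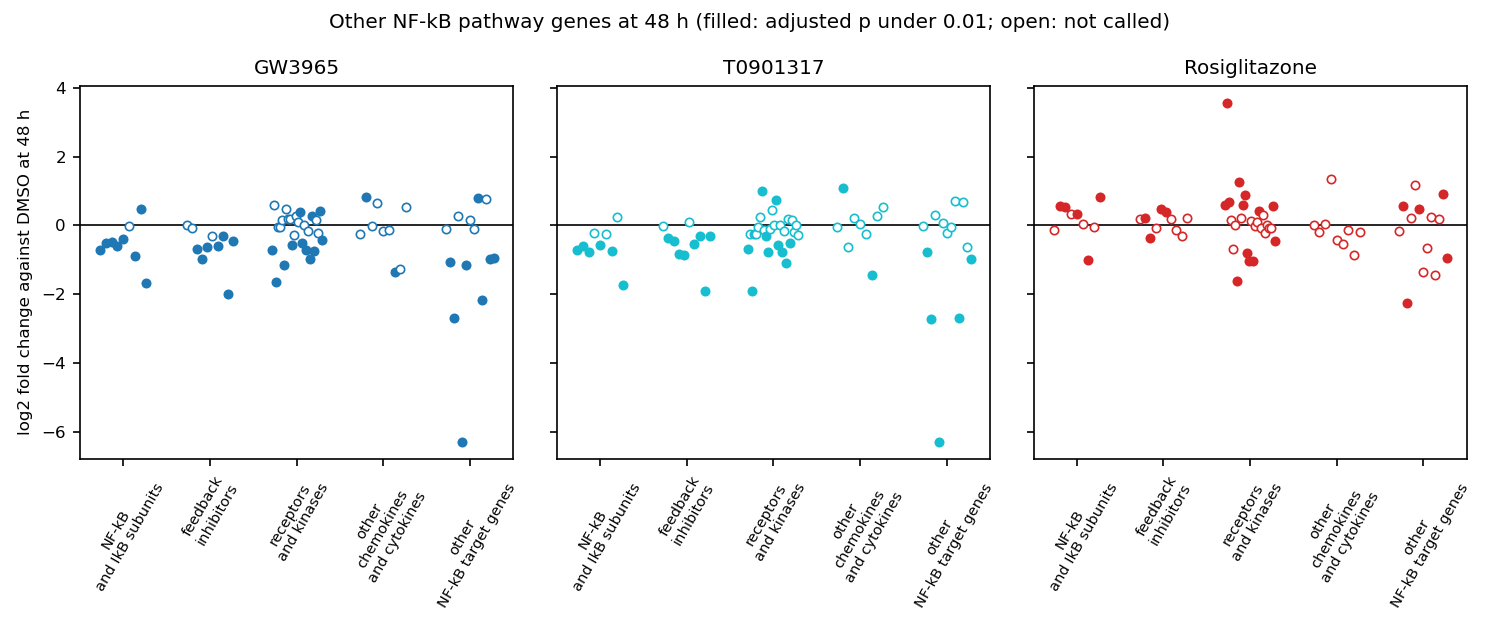
Log2 fold change against DMSO at 48 h of the other NF-κB pathway genes that passed the filter, by list and drug. Each point is a gene, filled where the adjusted p was under 0.01. With GW3965 and T0901317 most filled points lie below 0 (31 of 37 and 29 of 32), and with rosiglitazone 18 of 27 lie above it.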

How the data were processed

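The authors deposited raw counts of reads per gene for each RNA-seq library, in 1 table per time point. Poly(A) RNA was selected with beads and sequenced paired-end from Nextera libraries. The submitters' processing notes name TopHat, Cufflinks and the hg19 build without saying what each did. Which program counted the reads, and whether by strand, is not stated in the labels or methods. The study's methods name DESeq for its own comparisons.

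The counts were used as deposited. Genes were filtered with filterByExpr, scaled by TMM and tested with edgeR 4.0.16 (glmQLFit, glmQLFTest; R 4.3.3, limma 3.58.1) over the 16 libraries of a time point. The differences between time points and between responses were fitted over all 32. P-values were adjusted by Benjamini-Hochberg over all genes tested, and a gene was called at an adjusted p under 0.01. Tests were two-sided, and 95% intervals come from the fit. The SE is the log2 fold change divided by the root of the F statistic. Levels are CPM with TMM factors over all 32 libraries and are not per length, so they are compared between groups and not between genes. Total counts were 21044798 to 51332656 at 24 h and 32312041 to 50938082 at 48 h. No pair of libraries agreed within sampling noise, and the study's methods state that each treatment was carried out in 4 repeats, without saying how separate their cultures were, so p-values measure the spread between these repeats.

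The 10 genes and the pathway lists were chosen with earlier results of these data known. From each pathway list, and for each time point, the gene named was the one with the largest absolute change among those called whose average log2 CPM was 1 or more. Promoters were read from RefSeq (GRCh38.p14) with Python 3.11.15, and figures were drawn with matplotlib 3.10.9. Alternatives were DESeq2 1.42.0, other scaling, no low-count filter, other sets of libraries, an adjusted p under 0.05, a test against a fold change of 1.5, a replicate block, the 3 CXC chemokine rows added together, and each library left out in turn. ChIP-seq peaks were not used here. The level of 1 leukocyte marker is not reported here.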

Additional observations from a re-analysis of the deposited data

Results flagged for a closer look

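In 4 of the 80 sets of 4 libraries (10 genes in 8 groups), the highest or lowest library stood apart from the other 3 by Dixon's 95% criterion, and chance gives 1 in 20, or 4 of 80. CXCL2 at 24 h with T0901317 had 1 library at 0.575 CPM, with the next at 0.104. CCL20 in that group had 1 library at 0.285 CPM (11 counts) and 3 at 0. CXCL3 at 24 h with DMSO had 1 library at 0.288 CPM, with the next at 0.533. RELB at 48 h with DMSO had 1 library at 42.4 CPM, with the next at 45.7.

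The responses of 3 genes to the LXR agonists differed between 24 and 48 h in the interaction test. With GW3965 the log2 response at 48 h minus that at 24 h was -2.13 for CXCL3, -2.17 for IL8 and -0.79 for RELB. With T0901317 the differences were -2.44 for CXCL3, -1.90 for IL8 and -1.40 for RELB.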

How the results depend on the processing

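No called value changed sign in any alternative. The number of the 10 genes called moved by more than 1.5 times as follows, and the cause was not tested. The share of all genes called in each alternative was not computed, so a change in overall calling cannot be told apart. In the test against a fold change of 1.5 it was 0 with GW3965 at 24 h, 4 with GW3965 at 48 h, and 0 with rosiglitazone at each time, and the summed CXC chemokines with rosiglitazone at 48 h (-0.87) were no longer called. At an adjusted p under 0.05 it was 2 with rosiglitazone and 1 with T0901317 at 24 h. With DESeq2, with all 32 libraries, without the low-count filter or with only the 8 libraries compared, it was 2 with rosiglitazone at 24 h, 1 for rosiglitazone against T0901317 at 24 h and 1 for GW3965 against T0901317 at 48 h. DESeq2 also called 1 with T0901317 at 24 h. With library size alone it was 0 with rosiglitazone at 24 h, and 1 for the difference of the rosiglitazone response between times, as without the filter. Leaving out each library in turn gave 0 to 1 for GW3965 against T0901317 at 48 h, 0 to 2 for rosiglitazone against T0901317 at 24 h and 0 to 2 for the rosiglitazone response between times.

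Library size alone moved the median of all genes at 48 h by -0.179 (log2) for rosiglitazone against DMSO, -0.137 against GW3965 and -0.217 against T0901317. Same-numbered libraries of different groups had correlations of their deviations from -0.0845 to 0.122 at 24 h and -0.0467 to 0.0876 at 48 h, so the numbers were not taken to pair the samples. With the replicate block the counts of genes called were the same in all 16 comparisons, with 7 lower and 2 higher with GW3965 at 48 h. Of single genes over all alternatives and omissions, 32 values lost a call, 45 gained one and 2523 kept their side. Genes at a few counts per library, CCL20 above all, are limited by depth. Alternatives on peaks near the 10 genes were not run, since no hg19 gene positions were given.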
